A study of Mus musculus with 15 samples.

Results

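The genes examined here encode the CD8 coreceptor and the killing machinery of cytotoxic lymphocytes: Cd8a, Cd8b1, Gzma, Gzmb, Gzmk, Prf1, Nkg7, Klrk1, Fasl and Fas. They were taken by name from the deposited gene table, and all 10 were found among its 48709 genes. RNA had been sequenced from islets of 15 female NOD/ShiLtJ mice, 3 at each of 5 ages (4, 6, 8, 10 and 12 weeks). NOD mice are an inbred strain in which autoimmune diabetes arises spontaneously. By their labels the groups differ only in age, with no treatment or transgene. Dates of isolation and batches are not given in the sources used here. The islets had been picked by hand after collagenase digestion, so every sample mixes endocrine cells with whatever leukocytes, vessels and exocrine tissue stayed attached.

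CD8 T cells recognise peptides held by MHC class I on the surface of a target cell, and the CD8 alpha and beta chains, encoded by Cd8a and Cd8b1, bind the MHC molecule beside the T-cell receptor. A cytotoxic lymphocyte kills by 2 routes. In the granule route, perforin opens the target membrane and granzymes, which are serine proteases, enter and start cell death, and in the death receptor route, Fas ligand on the lymphocyte engages Fas on the target. Natural killer cells use the same machinery, and CD8 T cells that react to beta-cell peptides are a well-known component of insulitis, the infiltration of islets in NOD mice.

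The 250 bases ahead of the annotated start were read for the genes with an entry in the RefSeq table (build GRCm38.p6), which were 9 of the 10. Those of Gzma, Gzmb and Prf1 are shown because their products act together in the granule, and that of Fas is shown as the receptor that endocrine cells can also carry. Matches on either strand to short motifs are in capitals. The motifs searched were TGTGGT (Runx family), GGTGTG (T-box), AGGAAG (Ets), TGANTCA (AP-1), TTCNNNGAA (STAT) and the NF-kB consensus.
Gzma promoter, chr13:113100982-113101231, minus strand: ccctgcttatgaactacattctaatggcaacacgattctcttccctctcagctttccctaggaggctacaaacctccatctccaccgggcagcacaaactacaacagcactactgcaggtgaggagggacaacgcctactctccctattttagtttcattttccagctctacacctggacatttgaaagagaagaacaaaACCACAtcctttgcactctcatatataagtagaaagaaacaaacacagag
Gzmb promoter, chr14:56262335-56262584, minus strand: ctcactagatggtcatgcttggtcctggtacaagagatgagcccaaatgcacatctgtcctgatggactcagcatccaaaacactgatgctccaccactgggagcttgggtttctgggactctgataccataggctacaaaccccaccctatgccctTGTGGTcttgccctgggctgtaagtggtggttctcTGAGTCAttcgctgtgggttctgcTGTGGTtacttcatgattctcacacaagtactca
Prf1 promoter, chr10:61297586-61297835, plus strand: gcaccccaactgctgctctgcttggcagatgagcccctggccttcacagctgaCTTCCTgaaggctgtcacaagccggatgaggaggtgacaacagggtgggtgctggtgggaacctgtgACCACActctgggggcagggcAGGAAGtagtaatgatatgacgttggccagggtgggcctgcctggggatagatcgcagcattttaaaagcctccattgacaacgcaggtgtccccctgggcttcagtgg
Fas promoter, chr19:34290409-34290658, plus strand: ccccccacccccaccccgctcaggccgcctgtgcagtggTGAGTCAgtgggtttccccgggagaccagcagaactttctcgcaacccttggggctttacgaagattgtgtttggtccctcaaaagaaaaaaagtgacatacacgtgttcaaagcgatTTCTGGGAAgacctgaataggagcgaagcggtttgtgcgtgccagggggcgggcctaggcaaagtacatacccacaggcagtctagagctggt
The Runx motif was present in 5 of the 9 windows (Gzma, Gzmb, Prf1, Nkg7 and Klrk1), against 14.0% of all 32851 windows of that length. It occurs as the reverse complement ACCACA in Gzma, Prf1 and Nkg7, and as TGTGGT in Klrk1 and at 2 places in Gzmb. The T-box motif was present in 3 of the 9 (Gzmk, Nkg7 and Fasl; 16.3% of all windows), the Ets motif in 3 (Prf1, Nkg7 and Fasl; 29.5%), the AP-1 motif in 2 (Gzmb and Fas; 6.75%) and the STAT motif in 2 (Nkg7 and Fas; 7.02%). The NF-kB motif in the form searched was in none of the 9 windows and in 0.356% of all windows, and other forms were not searched. No matches overlapped each other in the 4 windows shown. A match describes letters in the window and does not show that a factor binds there.

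In these samples the transcripts of the CD8 chains and of the killing machinery, apart from Fas, were scarce in most mice of 4 and 6 weeks. Cd8a, Cd8b1, Nkg7, Klrk1 and Fas were higher in all 6 mice of 10 and 12 weeks than in any of the 9 younger mice, while Gzma and Gzmb were low in single mice of 10 and 12 weeks. Between 4 and 12 weeks, 8 of the 10 genes rose, by 5.12-fold (Fas) to 48.8-fold (Cd8b1), and no mouse of 12 weeks overlapped with one of 4 weeks for any of those 8. Gzma and Gzmb were the 2 exceptions, for which the highest mouse of 4 weeks lay above the lowest of 12 weeks. Across all 16554 genes tested, 26.3% were called higher at 12 than at 4 weeks and 30.3% were higher without overlap. Most single steps between neighbouring ages did not pass the test.

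**Figure D1:**
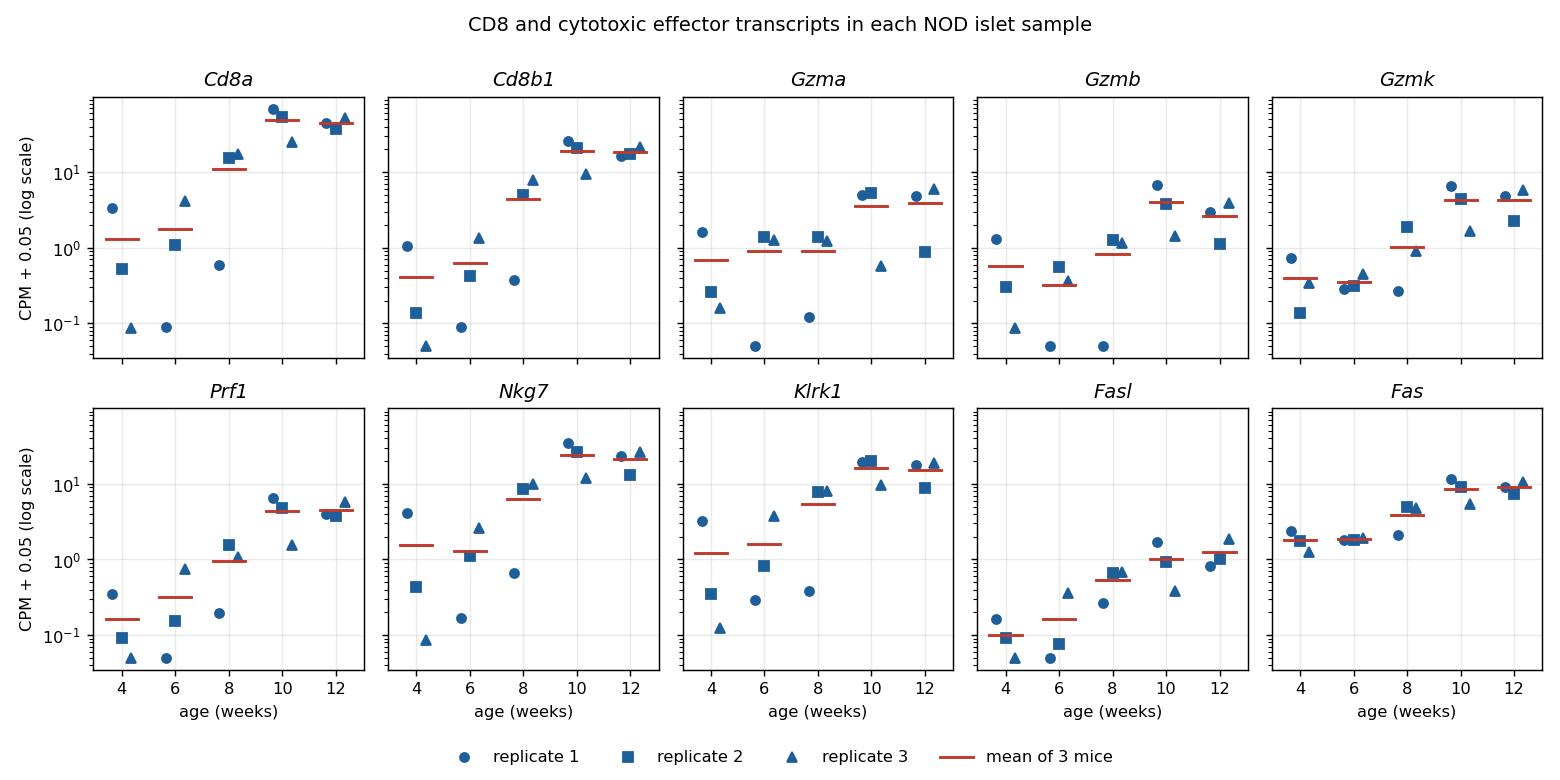
CPM plus 0.05 (log axis) of each gene in each of the 15 samples by age in weeks, with 1 symbol per replicate number and a red line at the mean of 3 mice. Replicate 1 at 4 weeks and replicate 3 at 6 weeks sit above the other mice of their age for Cd8a, and replicate 1 at 8 weeks sits below the other 2, at 0.547 CPM against 15.2 and 17.5.

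Levels within a gene are given as CPM, the reads of the gene per 1000000 reads of the library after scaling between libraries. The libraries held 25407492 to 41616275 counts. Mice of 1 age differed much from each other. Replicate 1 at 4 weeks held 110 counts of Cd3e, a chain of the T-cell receptor complex, against 9 and 2 in the other 2 mice, and replicate 3 at 6 weeks held 127 against 2 and 51. Replicate 1 at 8 weeks held 20 counts of Cd3e against 406 and 556. Replicate 2 at 6 weeks and replicate 1 at 12 weeks carried transcripts of intestinal epithelium, with 461 and 3623 counts of Alpi, an intestinal phosphatase, and 0 in the other 13. Bulk RNA cannot separate fewer cells of a type from less RNA per cell.

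Cd8a was measured at 3.26, 0.470 and 0.0362 CPM in the mice of 4 weeks and at 0.0396, 1.03 and 4.06 CPM in those of 6 weeks. The mice of 8 weeks had 0.547, 15.2 and 17.5 CPM, those of 10 weeks 69.2, 54.0 and 24.8 CPM, and those of 12 weeks 44.1, 37.2 and 52.4 CPM. The lowest mouse of 10 or 12 weeks was thus above the highest of any younger age. The difference between 12 and 4 weeks was 5.14 ± 1.24 on the log2 scale (SE, n = 3 mice per age, edgeR quasi-likelihood test, adjusted p = 0.00422). Cd8b1, the beta chain that pairs with the alpha chain on conventional CD8 T cells, followed the same course. It went from 1.01, 0.0855 and 0 CPM at 4 weeks to 16.1, 17.5 and 21.2 CPM at 12 weeks, a difference of 5.61 ± 1.17 (adjusted p = 0.00183). The 2 chains stayed in a narrow proportion, with 31.0 to 47.1 counts of Cd8b1 per 100 of Cd8a in the 11 mice with over 30 counts of Cd8a. Some dendritic cells carry Cd8a without Cd8b1.

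Prf1, which encodes perforin, had 0.299, 0.0428 and 0 CPM at 4 weeks, from 8, 1 and 0 counts. At 12 weeks it had 3.99, 3.74 and 5.75 CPM, all above every mouse of 4, 6 and 8 weeks. The change between 4 and 12 weeks was 5.23 ± 1.15 (log2, SE, adjusted p = 0.00246). Nkg7, a membrane protein of cytotoxic granules, had 4.08, 0.385 and 0.0362 CPM at 4 weeks and 23.5, 13.1 and 26.5 CPM at 12 weeks. Its groups were also apart, with a change of 3.80 ± 1.15 (adjusted p = 0.0144). Without replicate 2 of 4 weeks the adjusted p was 0.0559.

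Of the 3 granzymes, 1 was called between 4 and 12 weeks, and the difference between their changes was not tested. Gzmk, a granzyme with trypsin-like specificity, had 0.674, 0.0855 and 0.290 CPM at 4 weeks and 4.76, 2.21 and 5.69 CPM at 12 weeks, without overlap, and rose by 3.56 ± 0.78 (adjusted p = 0.00241). Gzma, which also cuts after basic residues, had 1.57, 0.214 and 0.109 CPM at 4 weeks and 4.73, 0.836 and 5.88 CPM at 12 weeks. Replicate 2 of 12 weeks therefore lay below replicate 1 of 4 weeks, and the difference of 2.58 ± 1.25 did not pass (adjusted p = 0.0984). Gzmb, the granzyme that activates caspases, had 1.27, 0.257 and 0.0362 CPM at 4 weeks and 2.89, 1.07 and 3.80 CPM at 12 weeks. Here too replicate 2 of 12 weeks fell below replicate 1 of 4 weeks, and the difference was 2.29 ± 1.13 (adjusted p = 0.104). Without replicate 1 of 4 weeks the differences were 4.55 for Gzma and 4.16 for Gzmb, with adjusted p of 0.0387 and 0.0361, and all 10 genes were called. The gene model of Gzmk in the table spans chr13:113171608-113225908 and contains Esm1, an endothelial gene on the other strand, which had 544 to 2348 counts per mouse. Whether the counting used strand is not given in the sources used here, so reads of the 2 genes may not be fully separated, and the 2 to 18 counts of Gzmk in the mice of 4 weeks are uncertain for that reason.

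Of 7 other granzymes, Gzmm alone passed the filter on low counts, with 12 to 38 counts per mouse over all ages and a difference of 0.28 ± 0.40 between 12 and 4 weeks (adjusted p = 0.579). Gzmd, Gzme, Gzmf, Gzmg and Gzmn had 0 counts in all 15 mice, which allows up to 3 counts in each, and Gzmc had at most 3. The granzymes with more than 3 counts in any mouse were thus Gzma, Gzmb, Gzmk and Gzmm. Gzmm had the most counts of these in replicates 2 and 3 of 4 weeks and in replicate 1 of 6 and of 8 weeks. In replicate 2 of 4 weeks it had 19, against 5 of Gzma, 6 of Gzmb and 2 of Gzmk. In the remaining mice Gzma, Gzmb or Gzmk had more.

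Klrk1 encodes NKG2D, an activating receptor of natural killer and CD8 T cells that binds stress-induced ligands. It had 3.18, 0.299 and 0.0724 CPM at 4 weeks and 17.8, 8.79 and 18.5 CPM at 12 weeks. The groups were apart, and the change was 3.65 ± 1.18 (adjusted p = 0.0199), although the adjusted p was 0.0727 without replicate 2 of 4 weeks and 0.0661 without replicate 3. Without the 2 samples holding intestinal transcripts the change was 3.51 and its adjusted p was just above the threshold. Its signalling adaptor Hcst rose by 4.36 ± 0.91 (adjusted p = 0.00185) and Tyrobp, which NKG2D can also use in mice, by 3.03 ± 0.62 (adjusted p = 0.00162). Among the ligands, Ulbp1 rose by 1.26 ± 0.49 (adjusted p = 0.0462). H60b went from 0 counts in all mice of 4 weeks to 36, 40 and 61 counts at 12 weeks. No mouse of 4, 6 or 8 weeks had over 6 counts of H60b, so it passed the filter only through the older mice. The call of H60b (adjusted p = 0.000608) is therefore not separate support for a rise of the ligands. All 4 genes of this list that passed the filter were called higher, H60b among them, against 26.3% of all genes. The list holds 10 genes, and the others were too scarce to test or absent.

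Fasl and Fas, the ligand and receptor of the death receptor route, differed in where they started. Fasl had 3, 1 and 0 counts at 4 weeks and 24, 29 and 58 counts at 12 weeks, and its groups did not overlap. Summed over mice and taken per library size, the ratio was 23.3, with a 95% counting interval of 8.85 to 87.0 that covers counting error only, and the fit gave an adjusted p of 0.00394. Fas was present in every mouse from the start. It had 2.36, 1.71 and 1.19 CPM at 4 weeks, 1.78, 1.74 and 1.89 at 6 weeks, 2.04, 4.88 and 4.71 at 8 weeks, 11.4, 8.99 and 5.32 at 10 weeks and 8.98, 7.39 and 10.6 at 12 weeks. Its change had the smallest SE of the 10 genes, at 2.36 ± 0.36 between 4 and 12 weeks (adjusted p = 0.000401).

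**Figure D2:**
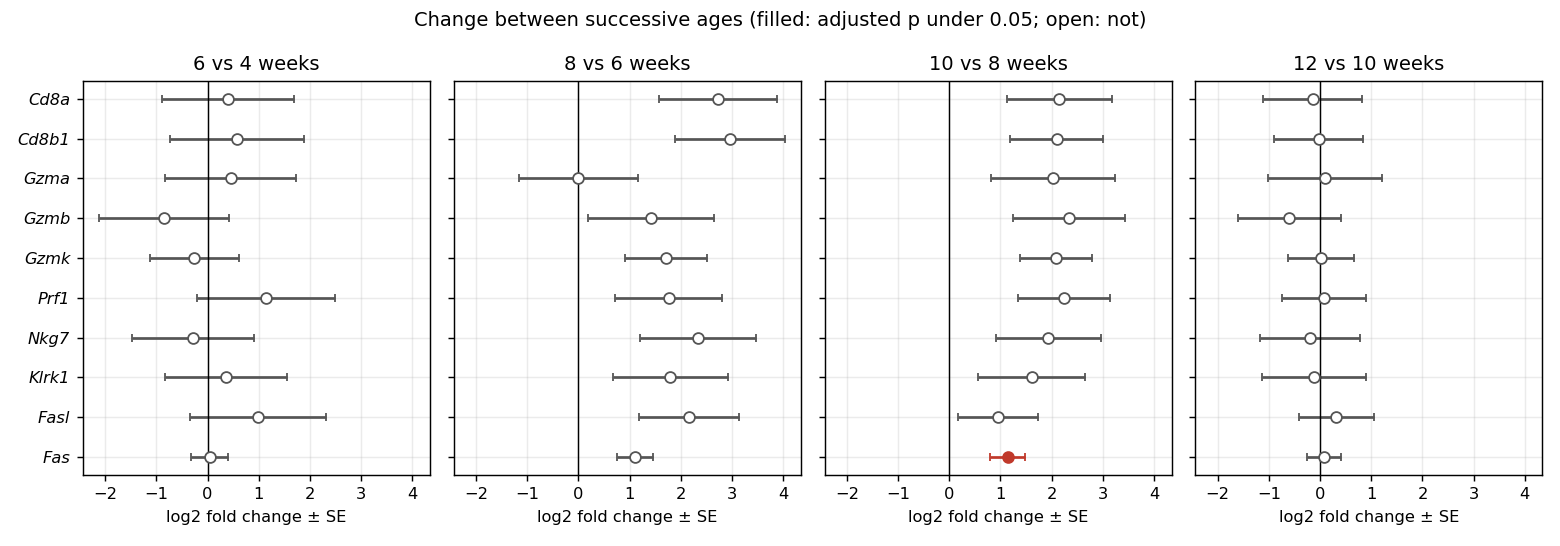
Log2 fold change with its SE for each gene between successive ages, from the fit across all 15 samples, with filled red points for an adjusted p under 0.05. The red point is Fas at 10 against 8 weeks, and the points of 6 against 4 and of 12 against 10 weeks lie on both sides of 0.

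At the ages in between, replicate 1 of 6 weeks was the lowest of its age for 9 of the 10 genes, all but Fas. Cd8b1 had 0.0396, 0.368 and 1.30 CPM at 6 weeks, 0.328, 4.99 and 7.75 at 8 weeks and 25.9, 20.8 and 9.27 at 10 weeks. Prf1 had 0, 4 and 18 counts at 6 weeks, 4, 42 and 29 at 8 weeks and 179, 191 and 45 at 10 weeks. For perforin, the lowest mouse of 10 weeks was level with the highest of 8 weeks after scaling. Nkg7 had 0.119, 1.08 and 2.56 CPM at 6 weeks, 0.620, 8.45 and 9.86 at 8 weeks and 34.5, 26.3 and 11.8 at 10 weeks. Klrk1 had 0.238, 0.763 and 3.67 CPM at 6 weeks, 0.328, 7.74 and 7.89 at 8 weeks and 19.2, 20.2 and 9.47 at 10 weeks. Both were apart between 8 and 10 weeks and overlapped between 6 and 8 weeks. Gzma had 0, 1.34 and 1.22 CPM at 6 weeks, 0.0730, 1.36 and 1.18 at 8 weeks and 4.96, 5.17 and 0.532 at 10 weeks. Gzmb had 0, 19 and 8 counts at 6 weeks, 0, 34 and 31 at 8 weeks and 185, 148 and 42 at 10 weeks. Gzmk had 0.238, 0.263 and 0.394 CPM at 6 weeks, 0.219, 1.85 and 0.857 at 8 weeks and 6.59, 4.30 and 1.63 at 10 weeks. Gzma thus had nearly the same range at 6 and 8 weeks, and Gzmb alone of the 3 granzymes was apart between 8 and 10 weeks. Fasl had 0, 1 and 8 counts at 6 weeks, 6, 17 and 18 at 8 weeks and 46, 35 and 10 at 10 weeks, with overlap at each step.

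Between 4 and 6 weeks none of the 10 genes was called, at an adjusted or an unadjusted p under 0.05, while 8.67% of all genes had such an unadjusted p, 0.00604% were called higher and 0.0846% lower. Their log2 differences ran from -0.86 to 1.14. At this step DESeq2 gave an adjusted p to 8 of the 10 genes, and the edgeR exact test covered 5 after its filter. Among those they called 0, adjusted or not, where they called 0.413% and 0.334% of all genes higher. The counts were few at both ages, with an SE of 1.29 (Cd8a) and 1.31 (Cd8b1), and changes well above 1 SE could also be missed. In the same edgeR fit, a Cd8a difference of 2.72 ± 1.15 between 6 and 8 weeks had an adjusted p of 0.246.

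Between 6 and 8 weeks the median difference of the 10 genes was 1.78, against -0.01 for all genes tested, and 9 of the 10 were higher at 8 weeks. None passed the adjusted test, which also called 0% of all genes higher. With a fold change of at least 1.5 and an unadjusted p under 0.05, the threshold of the study, 4 passed (Cd8a, Cd8b1, Fasl and Fas), against 8.4% of all genes. Fas alone was without overlap between these ages (7.62% of all genes were higher without overlap). Replicate 1 of 8 weeks was the lowest of its age for each of the 10 genes, and without it Cd8b1 (3.51, adjusted p = 0.0451) and Fas (1.41, adjusted p = 0.0352) were called. That mouse held 248 counts over the 10 T-cell markers, against 3735 and 5057 in the other 2, and 1196 counts over 6 B-cell markers, against 1379 and 3345.

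Between 8 and 10 weeks all 10 genes were higher, with a median of 2.06 against -0.01 for all genes. Fas rose by 1.14 ± 0.34 (adjusted p = 0.0418), and it was the 1 gene called, against 8.4% of all genes called higher. That call is fragile, since its adjusted p ran from 0.00915 to 0.216 over 24 alternatives. Cd8b1, Gzmk, Prf1 and Fas passed the threshold of the study (11.1% of all genes). Cd8a, Cd8b1, Gzmb, Nkg7, Klrk1 and Fas were higher at 10 weeks without overlap (17.2% of all genes). Without replicate 3 of 10 weeks, the lowest mouse of its age for all 10 genes, Gzmk and Prf1 were called as well.

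Between 10 and 12 weeks the 10 genes had a median difference of -0.01, within a range of -0.60 (Gzmb) to 0.32 (Fasl). None was called by edgeR (0% of all genes higher), by DESeq2 (0.0616%) or by the exact test (0.0434%), and none had an unadjusted p under 0.05 in any of the 3 (7.52% of all genes in edgeR). DESeq2 gave an adjusted p to 8 of the 10 here. None was without overlap, where 4.42% of all genes were higher and 5.4% lower. The SE of 0.33 (Fas) to 1.11 (Gzma) leaves room for changes of that size and larger either way. A test of any difference among the 5 ages called 9 of the 10, all but Gzma (adjusted p = 0.174), where 56% of all genes were called. Gzmb was close to the threshold there (adjusted p = 0.0462).

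Levels of different genes were compared in TPM, which the authors scaled for transcript length. At 12 weeks Nkg7 was the highest at 58.4 ± 21.8 TPM (SD, n = 3), followed by Cd8b1 at 31.2 ± 6.56 and Cd8a at 31.0 ± 7.13. Then came Fas at 12.6 ± 2.98, Gzma at 11.1 ± 8.03, Klrk1 at 8.81 ± 3.43, Gzmk at 7.73 ± 3.61, Prf1 at 5.56 ± 1.73, Gzmb at 4.66 ± 2.70 and Fasl at 1.58 ± 0.844. The single step in this order where every mouse was above every mouse of the next gene was that from Cd8a to Fas. At 4 weeks the order was another, with Nkg7 (3.27 ± 4.93 TPM), Fas (1.88 ± 0.688) and Gzma (1.43 ± 1.88) ahead of Gzmb (0.728 ± 0.938) and Cd8a (0.684 ± 0.967), and no neighbours were apart. At 6 weeks Nkg7 (2.67 ± 2.66), Fas (1.94 ± 0.122) and Gzma (1.88 ± 1.63) again led, and Cd8a was at 0.919 ± 1.14. From 8 weeks on both CD8 chains ranked above Fas, at 6.96 ± 5.82 (Cd8a) and 6.71 ± 5.84 TPM (Cd8b1) at 8 weeks and 33.4 ± 16.0 and 31.0 ± 14.8 TPM at 10 weeks. No neighbours were apart at 6, 8 or 10 weeks. Fasl was the lowest of the 10 at all 5 ages.

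Because the CD8 chains and the effector genes can come from the same infiltrating cells, each effector was also set against Cd8a in the same mouse, in the 11 mice with over 30 counts of Cd8a. Gzma stood at 48.3 counts per 100 of Cd8a in replicate 1 of 4 weeks (95% exact counting interval 32.6 to 70.5), at 131 in replicate 2 of 6 weeks (84.5 to 204) and at 30.1 in replicate 3 of 6 weeks (19.5 to 45.4). In the 8 mice of 8 to 12 weeks over that cut it ran from 2.15 to 11.2. The 3 younger mice were thus above these 8 for Gzma. Klrk1 showed the same split, with 97.7, 74.4 and 90.3 per 100 in the 3 younger mice and 23.6 to 50.9 in the 8 older ones, as did Nkg7, with 125, 105 and 63.1 against 35.3 to 56.3. Gzmb was at 39.1 and 48.7 in the first 2 of these mice and 7.77 in replicate 3 of 6 weeks, where the older mice had 2.88 to 9.68. Prf1 did not split by age, with 9.20, 10.3 and 17.5 per 100 in the younger mice, 9.86 and 5.92 in those of 8 weeks and 9.36, 8.88 and 6.03 in those of 10 weeks. Ncr1, a receptor of natural killer cells, had 14.9, 23.1 and 8.74 per 100 of Cd8a in the 3 younger mice and 4.58 to 12.0 in the older ones. The part of natural killer cells, and of the intestinal tissue in replicate 2 of 6 weeks, in these proportions was not tested. With 1 eligible mouse at 4 weeks and 2 at 6 weeks, the split has no test by age.

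**Figure D3:**
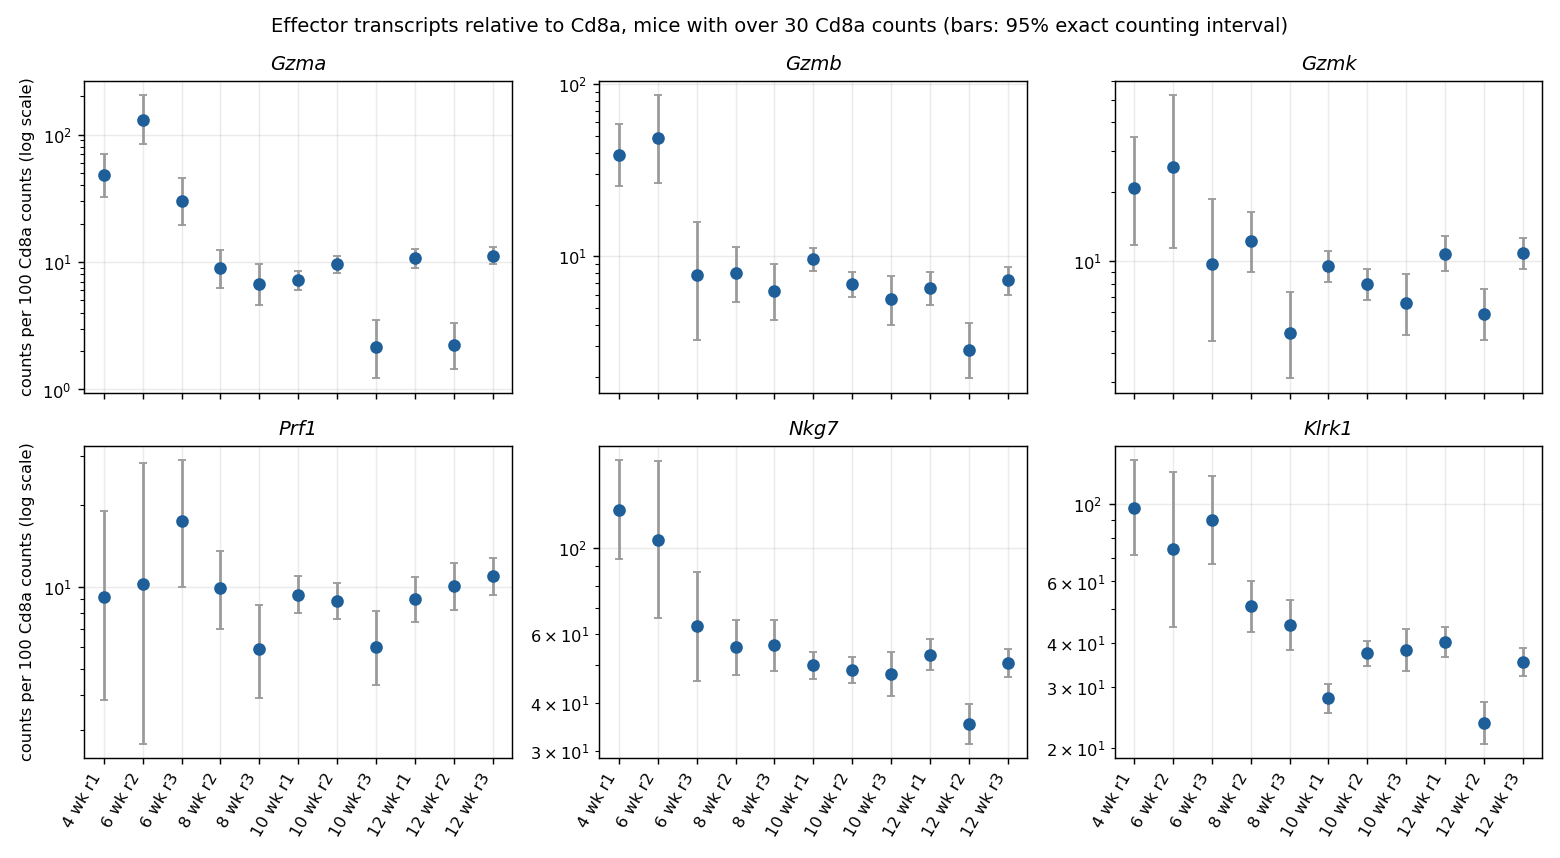
Counts of 6 effector genes per 100 counts of Cd8a in the same sample (log axis), for the 11 samples with over 30 Cd8a counts in order of age in weeks (wk) and replicate (r). Bars are 95% exact counting intervals, and Gzma, Nkg7 and Klrk1 are higher in the 3 samples of 4 and 6 weeks than in the other 8.

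By the ratio of highest to lowest CPM, the spread among the 6 mice of 10 and 12 weeks was wider for some effectors than for the CD8 chains, and narrower for Klrk1 and Fas. By the SD as a share of the mean, Klrk1 (32.7%) was not narrower than Cd8a (32.5%) or Cd8b1 (30.6%). Over those 6 mice the highest CPM was 11.1 times the lowest for Gzma, 6.26 times for Gzmb, 5.49 for Fasl, 4.33 for Prf1 and 4.04 for Gzmk. It was 2.79 times for Cd8a and for Cd8b1, 2.93 for Nkg7, 2.30 for Klrk1 and 2.14 for Fas, and 2.57 for Cd3e. Counting error widens this ratio more for scarce genes, and its share was not tested. In replicate 3 of 10 weeks, the lowest mouse for both, Fasl had 10 counts and Cd8a 746. Replicate 3 of 10 weeks was the lowest of the 6 for Gzma (16 counts), and replicate 2 of 12 weeks had 25 counts of Gzma, where the other 4 had 137 to 206. Per 100 counts of Cd8a those 2 mice had 2.15 and 2.25 counts of Gzma, against 7.17 to 11.2 in the other 4, so they stand apart in Gzma by more than in Cd8a. Ratios within a mouse were compared between 12 and 10 weeks by exact permutation tests, for 9 genes to Cd3e and for Cd8a to Cd8b1, Cd8a to Cd4 and Fasl to Fas, which makes 12 ratios. Cd8a to Cd3e was lower at 12 weeks by 0.25 on the log2 scale, in 3 of 3 mice, with an exact two-sided p of 0.1, the smallest that 3 against 3 mice can give, and an adjusted p of 0.6. The lowest exact p of the others was 0.2, for Cd8a to Cd4. Between 12 and 8 weeks 3 ratios could be tested, with exact p of 0.3 to 0.5, and between 12 and 4 weeks none of the 12, because a mouse had under 10 counts of a gene.

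Adding the mean log2 CPM of 10 T-cell markers of each mouse, among them Cd3e, Cd2 and Lck, to the fit changed the comparison of 12 with 4 weeks. These markers all rose too, with a median of 4.76, and the mean per mouse ran from -2.21 to 1.82 at 4 weeks and from 5.05 to 5.56 at 12 weeks, so the term and age overlap heavily. With it none of the 10 genes was called by edgeR (0.954% of all genes were called higher and 0.465% lower), and 4 had an unadjusted p under 0.05 (21.1% of all genes). Cd8a (-0.42 ± 0.33, adjusted p = 0.652) and Cd8b1 (0.45 ± 0.42, adjusted p = 0.566) had estimates near 0. The SE was derived from the test statistic. For Cd8a the p-value of the fit is larger than this SE implies, so the SE may understate the error. Relative to the T-cell markers the edgeR estimates were below 0 for Gzmb (-3.15 ± 1.17, adjusted p = 0.153), Klrk1 (-1.58 ± 0.45, adjusted p = 0.0843) and Nkg7 (-1.18 ± 0.47, adjusted p = 0.178), and above 0 for Fas (1.06 ± 0.40, adjusted p = 0.155). These were the 4 with an unadjusted p under 0.05, and they do not pass the adjustment. DESeq2 with the same term called 1 gene, Gzmb, and Klrk1 was called when replicate 3 of 10 weeks or replicate 1 of 12 weeks was left out.

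**Figure D4:**
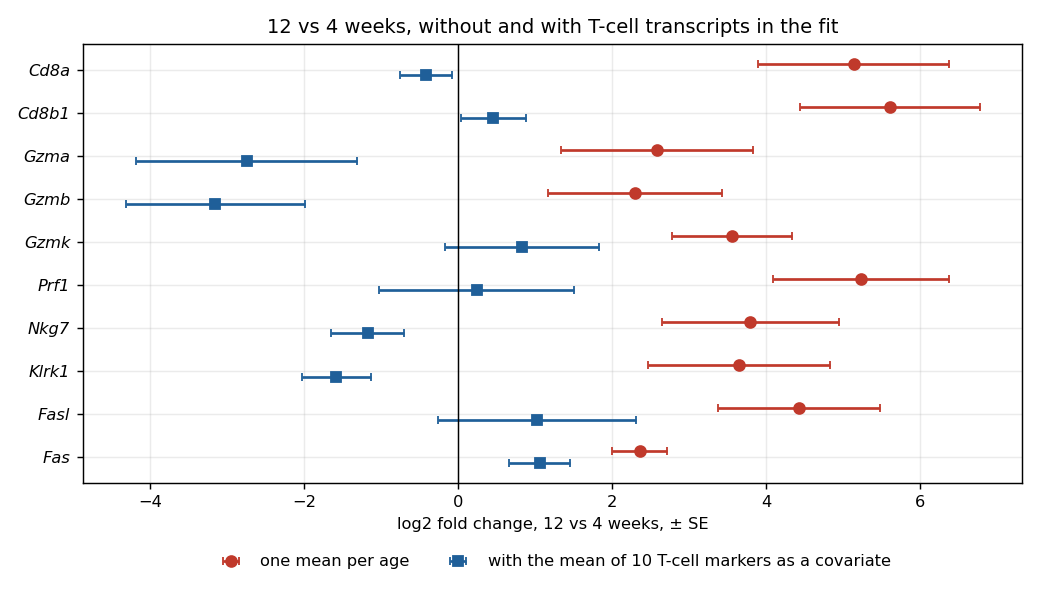
Log2 fold change at 12 against 4 weeks with its SE for each gene, from the fit with 1 mean per age (red circles) and with the mean of 10 T-cell markers added (blue squares). The circles run from 2.29 to 5.61, and the squares lie on both sides of 0, from -3.15 (Gzmb) to 1.06 (Fas).

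Genes that work with these effectors moved in the same comparison. Beside the counts that follow, 26.3% of all genes were called higher and 27.2% lower between 4 and 12 weeks, with a median difference of -0.05. Of 12 genes of granule cargo and release, 7 rose and 2 fell, with a median of 1.81. The largest increases were those of Cst7, the inhibitor of granule cathepsins (4.91 ± 1.18, adjusted p = 0.00421), Unc13d, which primes granules for release (3.74 ± 0.69, adjusted p = 0.000905), and Ctsw, a cathepsin of cytotoxic cells (3.72 ± 1.19, adjusted p = 0.0191). Rab27a, which docks granules in lymphocytes and insulin granules in beta cells, fell by 0.62 on the log2 scale (adjusted p = 0.000512), and Calr, a chaperone, fell by 0.23 (adjusted p = 0.0372). Of 11 transcription factors of cytotoxic lymphocytes, 10 rose (median 3.41), led by Eomes (6.08 ± 1.17, adjusted p = 0.00121), Tcf7 (5.61 ± 1.03, adjusted p = 0.000894) and Irf4 (5.03 ± 0.95, adjusted p = 0.00105). Eomes drives effector and memory CD8 T cells, Tcf7 marks naive and stem-like T cells, and Irf4 acts in activated T cells and also in B cells. Tox had 0.16 ± 0.13 (adjusted p = 0.283).

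All 7 cytokines and chemokines of cytotoxic lymphocytes rose (median 3.45), led by Lta (4.66 ± 0.72, adjusted p = 0.000415), Xcl1, which attracts type 1 dendritic cells (4.22 ± 1.09, adjusted p = 0.00622), and Ccl5 (3.50 ± 1.23, adjusted p = 0.0294). Of 13 genes of death receptor signalling, 8 rose and 1 fell, with a median of 0.42. Bid, which links caspase 8 to mitochondria, rose by 1.74 ± 0.34 (adjusted p = 0.0012), Tnfsf10, the TRAIL ligand, by 1.49 ± 0.38 (adjusted p = 0.00551) and Casp8 by 1.37 ± 0.21 (adjusted p = 0.000373). Bax fell by 0.26 (adjusted p = 0.00744). Of 6 inhibitors of granzymes and related proteases, 5 rose, with a median of 3.56. Serpinb9, the inhibitor of granzyme B, was abundant already at 4 weeks, with 562 to 886 counts, and rose by 1.77 ± 0.30 (adjusted p = 0.000577). The largest increases on that list were those of Serpina3g (4.09 ± 1.29, adjusted p = 0.0176), Serpinb1a (4.07 ± 0.48, adjusted p = 0.000168) and Serpinb9b (3.90 ± 1.32, adjusted p = 0.0282).

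Markers of other leukocyte types rose as well between 4 and 12 weeks. All 6 CD4 T-cell markers rose (summed counts 29 to 444 at 4 weeks and 3700 to 5498 at 12 weeks), as did all 6 B-cell markers (147 to 221 and 9386 to 14304), all 7 macrophage markers, all 6 type 1 dendritic-cell markers and all 5 plasmacytoid dendritic-cell markers. Of 9 natural killer markers, 8 were tested and 7 rose, with summed counts of 1 to 44 at 4 weeks and 233 to 376 at 12 weeks, and Ncr1 was at 0 in 1 mouse of 4 and 1 of 6 weeks. The Klra genes among them are near-identical copies, so their counts are uncertain. Of 4 gamma delta T-cell markers 3 rose and 1, Sox13, fell by 0.38 on the log2 scale (adjusted p = 0.00396). Of 6 mast-cell markers 2 were tested and 1 rose. All 5 lymph node stroma markers rose, 9 of 11 endocrine markers fell (27.2% of all genes were called lower) and none of 9 acinar markers was called. Which of these cells carried the transcripts of Nkg7, Klrk1, Prf1 and the granzymes was not tested, since several of them can.

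Over the 15 mice the course of each gene was compared with that of every other gene tested, by Pearson's r of log2 CPM. The values describe a likeness over shared libraries in which many genes rise with age, and its source was not tested. For Cd8a the closest genes were Cd3e (r = 0.998), H2-Q7 (0.998) and Cd4 (0.997), and for Cd8b1 they were Ptprcap (0.999), Ptprc (0.998) and Spn (0.997). For Nkg7 they were Aif1 (0.997), H2-Q7 (0.996) and Trbc2 (0.994), and for Klrk1 Tlr12 (0.995), Siglech (0.994) and Tgfbi (0.993). For Prf1 they were Clec4n (0.991), Aim2 (0.991) and Ptprc (0.990), for Fas Stat6 (0.994), Tgm2 (0.993) and Sod3 (0.992), for Gzmk Ubash3b (0.981), Nab1 (0.980) and Skap2 (0.980) and for Fasl Tirap (0.981), Tlr8 (0.980) and Klri2 (0.975). Gzma had the least close neighbours, with Gzmb itself first (0.934), then Tvp23a (0.925) and Mmp7 (0.920), and Mmp7 (0.973), Gbp11 (0.965) and Batf2 (0.964) were closest to Gzmb. The leading neighbours of 8 of the 10 genes thus had r above 0.98. After each age mean was subtracted, r with the neighbours listed ran from 0.9008 (Gzma and Tvp23a) to 0.9965 (Cd8b1 and Spn). Between pairs of the 10 genes it still ran from 0.640 (Cd8a and Gzmk) to 0.985 (Cd8a and Cd8b1), over the same 15 mice.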

How the data were processed

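RNA of hand-picked islets was sequenced from 3 mice at each of 5 ages. The authors made polyA libraries and aligned and counted reads in CLC Genomics Workbench, against mm10 per the labels. The deposited counts are whole reads per gene with no normalization. The deposited TPM values, scaled by the authors for length and depth, served only to compare levels between genes. The other 30 per-sample columns (RPKM and CPM) were not used.

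Genes were kept by filterByExpr (16554 of 48709), scaled by TMM and fitted in edgeR 4.0.16 (R 4.3.3) by quasi-likelihood with 1 mean per age over the 15 mice, with Benjamini-Hochberg adjustment over all genes tested and a threshold of 0.05. Log2 CPM used a prior count of 2. Ratios were compared by exact permutation tests in SciPy 1.17.1, two-sided. The fit was tested on simulated data. Alternatives were DESeq2 1.42.0 and its size factors, library totals, no filter, the edgeR exact test, the 2 ages alone, a replicate block, a T-cell covariate, each mouse left out and, added after seeing the data, leaving out the 2 samples with intestinal transcripts and comparing ratios between 12 and 10 weeks. The replicate numbers 1 to 3 come from the labels and join different animals. The genes and lists were chosen with earlier results of these data known. Some genes on the lists are not reported here by name. The text names all 10 genes, up to 3 of the largest changes past the threshold in each list of related genes, and the 3 genes with the highest r for each of the 10. Depth ran from 25407492 to 41616275 counts.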

Additional observations from a re-analysis of the deposited data

How the results depend on the processing

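Of the 10 genes, 8 were called at 12 against 4 weeks, and 8 also with DESeq2 size factors, library totals, no filter, the 2 ages alone and the replicate block. The count was 9 in the exact test, 7 in DESeq2, which gave Klrk1 no adjusted p, 7 without the samples holding intestinal transcripts and 6 to 10 when each mouse was left out. With the T-cell covariate it was 0, and over the 5 ages 0 in place of 9. Over the 5 ages the replicate block gave 7, the fit without the intestinal samples 6, and leaving out each mouse 7 to 9. At 10 against 8 weeks the count of 1 became 0 with no filter, the 2 ages alone, the exact test, the replicate block, the T-cell covariate and without the intestinal samples, 2 in DESeq2, and 0 to 3 when a mouse was left out. At 8 against 6 weeks it was 0, and 0 to 2 when a mouse was left out. With the covariate at 12 against 4 weeks, DESeq2 called 1 gene (Gzmb) and leaving out a mouse gave 0 to 1 (Klrk1). The causes were not tested. Library totals moved the median of all genes at 12 against 4 weeks from -0.05 to 0.20 and that of the 10 genes from 3.72 to 3.96. The labels' replicate numbers join different animals, and deviations of mice with the same number correlated by -0.34 to 0.29 on average.

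The T-cell covariate turned the sign of Cd8a (-0.46), Cd8b1 (-0.032), Gzmb (-2.04), Prf1 (-0.82), Nkg7 (-0.56) and Klrk1 (-1.17) at 8 against 6 weeks, of Gzma (-0.073), Nkg7 (-0.0091), Fasl (-0.57) and Klrk1 (-0.30) at 10 against 8 weeks, and of Cd8a (-0.42), Gzma (-2.75), Gzmb (-3.15), Nkg7 (-1.18) and Klrk1 (-1.58) at 12 against 4 weeks. Gzma at 8 against 6 weeks was at 0 within its error and became 0.015 with DESeq2 size factors, 0.13 with library totals, 0.00045 with no filter, 0.013 with the 2 ages alone, 0.031 in the exact test, 0.039 in DESeq2, 0.00098 with the replicate block, 0.51 without the intestinal samples and -0.56 to 0.54 when a mouse was left out. The log2 ratio of Nkg7 to Cd3e at 12 against 8 weeks became 0.0098 with Ptprc as the denominator. At 12 against 10 weeks the ratio of Gzma to Cd3e became -0.053 over the T-cell markers and -0.012 over Ptprc, and that of Prf1 -0.0042 over the T-cell markers. When a mouse was left out these ratios ran from -0.59 to 0.78 for Gzma, from -0.27 to 0.21 for Gzmk and from -0.12 to 0.23 for Prf1.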
